A study of Mus musculus with 6 samples.

Results

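Complement and coagulation proteins are plasma proteins made mostly by hepatocytes. The 42 genes described here encode complement components, clotting factors, fibrinolysis proteins and their inhibitors. They were chosen by name and function, as complement, clotting and fibrinolysis genes that hepatocytes make, with earlier results of these data known. All 42 were found among the 54446 genes of the deposited count table, and all 42 passed the filter on low counts that left 15368 genes for testing. RNA was sequenced from mouse liver cells at week 0, 2 or 7 of a treatment named in the series title as MET/CAT and SB transposase, with 2 libraries a week and 6 in all. SB transposase is an enzyme that inserts DNA carrying its recognition sequences into chromosomes, and the labels do not expand CAT. The sources used here do not give which cells carry the introduced DNA, the promoter that drives it, or the age and sex of the mice. All groups share a mouse line described as mixed FVB/N and C57BL/6 in the label of week 0 replicate 1. The number after C57BL/ differs in each of the other labels, so that part of their background is unsure. No untreated mice at week 2 or 7 were analysed here. Nothing in the labels says that the libraries of a week came from separate animals, so p-values measure only the spread between these libraries, which may be technical.

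Both systems are cascades of proteases that circulate as inactive precursors. Complement is started by antibody or by lectins that bind microbial sugars, converges on the cleavage of C3, and ends with terminal components that insert into membranes as a pore, the membrane attack complex. Coagulation ends with thrombin cutting fibrinogen to fibrin, several of its proteases need vitamin K for a modification that lets them bind membranes, and plasmin then dissolves the fibrin. In mouse liver the amounts of several complement proteins are known to differ between females and males.

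Library totals ran from 49353453 to 58434358 deposited counts. Levels are counts relative to 1e+06 counts of library size (CPM) after TMM scaling, a between-library scaling factor, and a call is an adjusted p under 0.05 in edgeR's quasi-likelihood test with Benjamini-Hochberg adjustment over the 15368 genes. Xist, an RNA made from the inactive X chromosome in females, was counted 13236 and 12804 times in week 2 libraries, against 10 and 15 times in week 0 libraries and 0 times in both week 7 libraries. The Y-linked gene Ddx3y was counted 0 times in both week 2 libraries, against 2113 and 1897 times in week 0 libraries and 2045 and 2303 times in week 7 libraries. Treatment time and sex therefore cannot be told apart in any comparison with week 2. The sum of 7 hepatocyte markers was 102921 and 103442 CPM at week 0, 132084 and 125121 CPM at week 2, and 88882 and 87798 CPM at week 7, with no marker at 0 in any library. Without Alb the order differed, and the other 6 markers together had 37000.1 and 38382 CPM at week 0, 33716 and 32514 CPM at week 2, and 34812 and 33380.3 CPM at week 7. The sum of 7 Kupffer cell markers was 345 to 347 CPM at week 0, 463 to 469 CPM at week 2 and 245 to 248 CPM at week 7. For 9 stellate cell or fibroblast markers the sums were 252 to 255 CPM, 381 CPM in both libraries and 172 to 185 CPM in the same order. For 8 liver endothelial markers they were 372 to 394 CPM, 419 to 440 CPM and 342 to 350 CPM. The 7 hepatocyte markers were split at week 2 against week 0, with Alb and Apoa2 called higher and Ttr, Apoa1 and Rbp4 lower. Of the 8 endothelial markers, 2 were called higher there, and Ptprb had a log2 fold change of -0.15 that was not called. The 9 stellate cell or fibroblast markers also did not all follow their sum. At week 2 against week 0, 6 were called higher and 1 lower, which was Lrat (log2 fold change -0.57). At week 7 against week 0, 5 were called lower and 1 higher, which was Reln (log2 fold change 0.68). Sums over 6 platelet and 5 neutrophil markers stayed at or under 5.69 CPM, with up to 3 of the platelet markers and up to 4 of the neutrophil markers at 0 in a library. The part of these differences in the results below was not tested, and in bulk samples fewer cells of a type and less RNA per cell cannot be told apart.

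The terminal complement genes C6, C8a, C8b and C9 were lower by 4.06-fold to 8.54-fold at week 2 than at week 0, while the fibrinogen relative Fgl1 was 6.17-fold higher and the lectin Mbl2 2.23-fold higher. At week 7 these 6 genes were within 1.5-fold of week 0. In week 7 against week 0, 9 of the 42 genes were higher and 8 lower, a background of 7.58% higher and 6.23% lower calls over all tested genes (13.8% either way). The log2 fold changes of the 42 genes ran from -0.38 to 0.34, with a median of -0.026 against 0.0016 for all tested genes, and no gene passed 1.5-fold. In week 2 against week 0, 12 genes were higher and 13 lower (background 9.81% and 8.81%, 18.6% either way). Of these 25 genes, 6 differed by more than 2-fold, and the median of all 42 was 0.028 against 0.014 for all tested genes. The share of all tested genes past 2-fold or 1.5-fold was not counted, so the counts past these folds have no background beside them. With libraries scaled by their total counts only, 20 genes were higher and 9 lower, against 13.1% and 5.94% of all tested genes. In week 7 against week 2, 15 genes were higher and 14 lower (background 10.1% and 9.73%, 19.8% either way). A difference anywhere over the 3 weeks was called for 33 of the 42 genes, against 26.4% of all tested genes. The 42 genes had 1947 (Pros1) to 506590 (C3) deposited counts in a library, a depth at which small differences can be called. Tested genes include some with far fewer counts, so these shares were not compared at like depth. Comparisons that share a week share its libraries and are not independent. F12, Pros1, Proz, Masp1, Cfb and Serping1 were called in no pair of weeks.

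**Figure D1:**
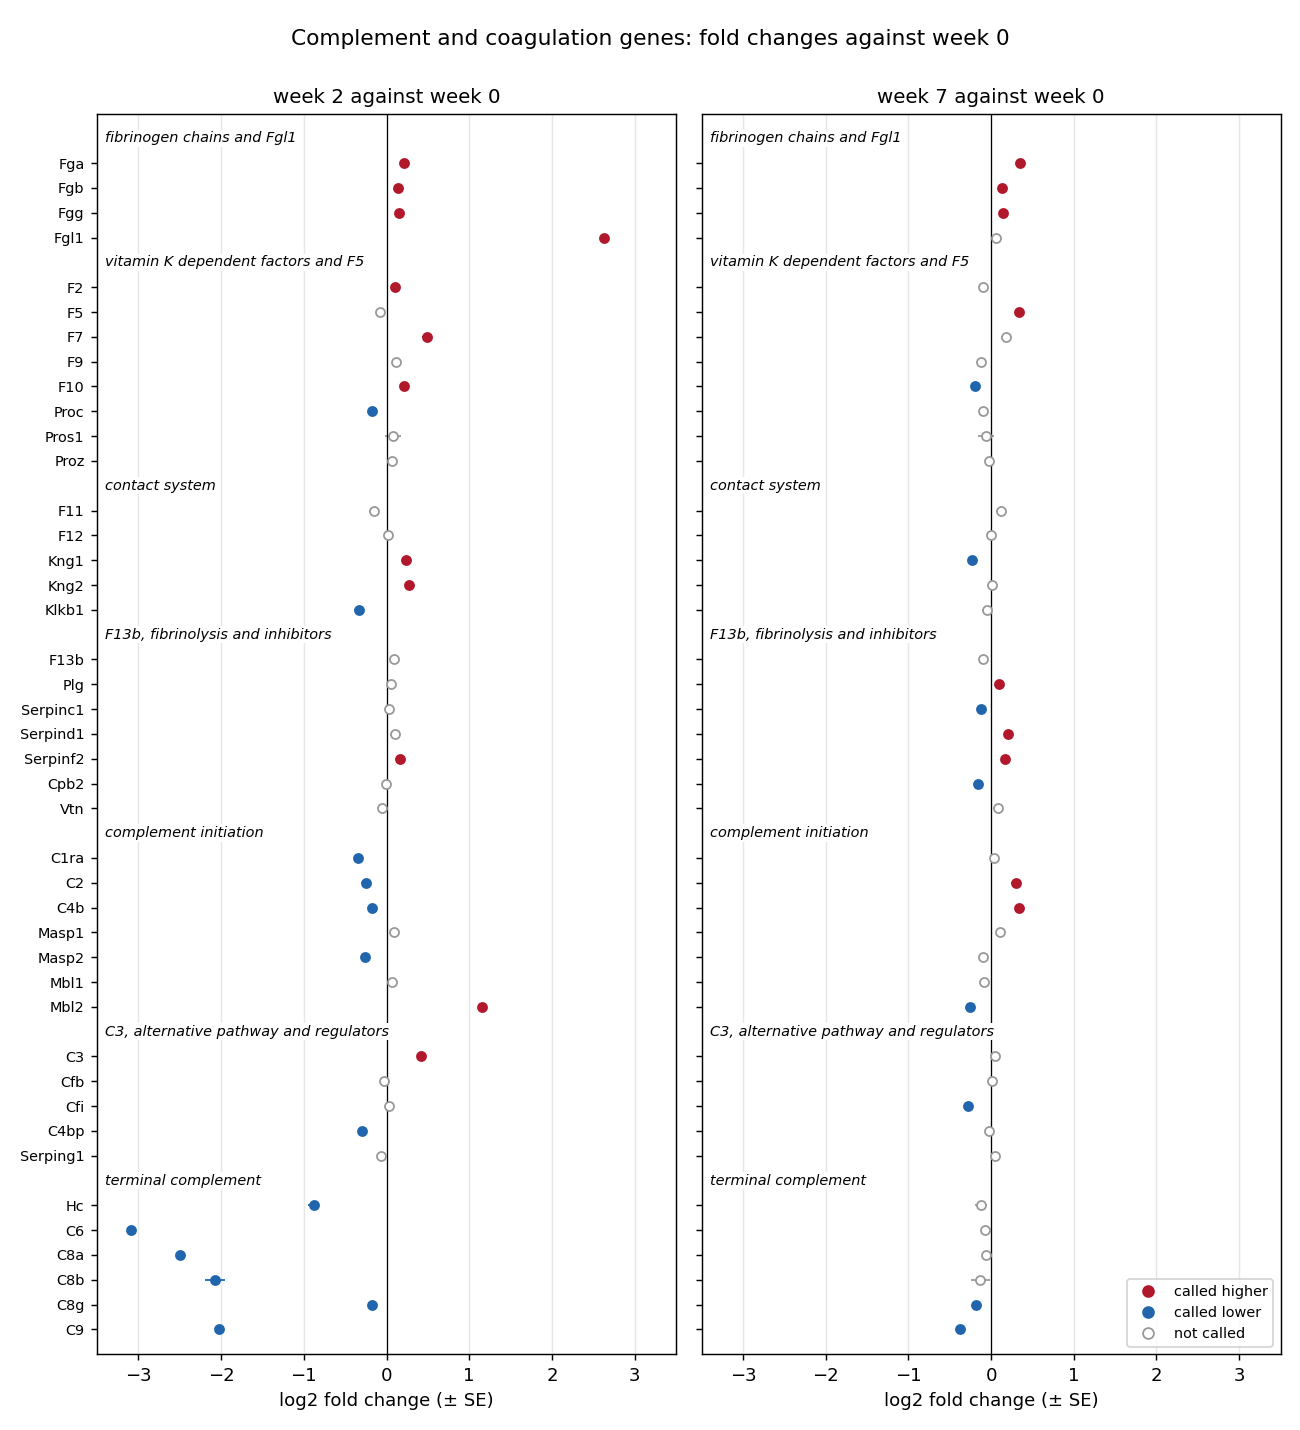
Log2 fold change of each of the 42 genes, ordered by role, in week 2 against week 0 and in week 7 against week 0. Points are fitted values, bars are standard errors, red marks genes called higher, blue genes called lower and open grey genes not called. Values at week 2 run from -3.09 (C6) to 2.63 (Fgl1), and those at week 7 stay between -0.38 and 0.34.

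Complement can be started by lectins or by the C1 complex, and 7 of the genes belong to these opening steps. In week 2 against week 0, Mbl2 rose while C1ra, C2, C4b and Masp2 fell, and Mbl1 and Masp1 were not called. In week 7 against week 0, C4b and C2 rose and Mbl2 fell. Mbl2 encodes a mannose-binding lectin that recognises microbial sugars. Mbl2 had 476 and 488 CPM at week 0, 1098 and 1055 CPM at week 2, and 405 and 399 CPM at week 7. Both week 2 libraries lay above both other weeks, and both week 7 libraries below week 0, with no overlap. The level was 2.23-fold higher at week 2 than at week 0 (log2 fold change 1.16 ± 0.035 SE, edgeR adjusted p = 5.45e-08) and 1.2-fold lower at week 7 than at week 0 (log2 fold change -0.26 ± 0.035 SE, edgeR adjusted p = 0.00149). Its relative Mbl1 averaged 247 ± 4.31 CPM at week 2 and 235 ± 7.34 CPM at week 0 (SD, n = 2 each), a difference that was not called (edgeR adjusted p = 0.381). Masp1, a protease that such lectins carry, averaged 140.00 ± 3.97 CPM at week 0, 149 ± 1.01 CPM at week 2 and 151 ± 2.15 CPM at week 7. The ratio of Mbl2 to Mbl1 counts was 4.40 and 4.33 in week 2 libraries, against 1.98 and 2.12 in week 0 libraries, with 1.78 and 1.86 in week 7 libraries.

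C4b and C2 encode the parts of the C3 convertase that both starting routes build. C4b averaged 1087 ± 6.80 CPM at week 7 and 861 ± 5.32 CPM at week 0 (SD, n = 2 each), a 1.26-fold higher level at week 7 (log2 fold change 0.34 ± 0.029 SE, edgeR adjusted p = 0.000124). At week 2 it was lower than at week 0 by 1.13-fold (log2 fold change -0.17 ± 0.029 SE, edgeR adjusted p = 0.00324), a call lost when total counts were the only scaling (adjusted p = 0.13). C2 averaged 102 ± 3.53 CPM at week 7 and 82.7 ± 0.68 CPM at week 0 (SD, n = 2 each; log2 fold change 0.30 ± 0.063 SE, edgeR adjusted p = 0.0142). At week 7 it was not called without week 0 replicate 1 (adjusted p = 0.0768), week 0 replicate 2 (0.0614) or week 7 replicate 1 (0.0755). C2 was lower at week 2 than at week 0 (log2 fold change -0.25 ± 0.064 SE, edgeR adjusted p = 0.0274), which did not hold under scaling by total counts (log2 fold change -0.16, adjusted p = 0.137) or without any 1 of the 4 libraries (0.0513 to 0.162). In week 7 against week 2, C4b and C2 were higher by 1.42-fold and 1.46-fold (edgeR adjusted p = 4.23e-06 and 0.000392). C1ra, a protease of the C1 complex, was 1.27-fold lower at week 2 than at week 0 (log2 fold change -0.34 ± 0.051 SE, edgeR adjusted p = 0.0018), and Masp2, a protease that lectins activate, was 1.2-fold lower (log2 fold change -0.26 ± 0.043 SE, edgeR adjusted p = 0.00319). Reads of C4b and C4a, and of C1ra and C1rb, may have been split between near-identical copies, so their single values are uncertain.

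C3 is the component on which all starting routes converge, and 4 further genes encode the alternative pathway protease factor B (Cfb) and regulators. C3 had 6351 and 6332 CPM at week 0, 8448 and 8490.2 CPM at week 2, and 6651 and 6428 CPM at week 7. Both week 2 libraries lay above both libraries of each other week. C3 was 1.34-fold higher at week 2 than at week 0 (log2 fold change 0.42 ± 0.023 SE, edgeR adjusted p = 2.89e-06), and week 7 against week 0 was not called (edgeR adjusted p = 0.251). Cfi, the protease that inactivates C3b and C4b, was 1.21-fold lower at week 7 than at week 0 (log2 fold change -0.28 ± 0.031 SE, edgeR adjusted p = 0.000587), with 563 ± 0.475 CPM at week 7 and 683 ± 9.40 CPM at week 0 (SD, n = 2 each). C4bp, a cofactor of that protease, was 1.23-fold lower at week 2 than at week 0 (log2 fold change -0.29 ± 0.033 SE, edgeR adjusted p = 0.000324). Cfb averaged 1097 ± 3.30 CPM at week 0, 1070.2 ± 2.44 CPM at week 2 and 1109 ± 25.2 CPM at week 7 (SD, n = 2 each). Serping1, the inhibitor of the C1 proteases and of the contact system, averaged 762 ± 12.0 CPM at week 0, 730.4 ± 35.4 CPM at week 2 and 784 ± 29.5 CPM at week 7. Neither was called in any pair of weeks.

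All 6 genes of the terminal pathway were lower at week 2 than at week 0, and 5 of them were higher at week 7 than at week 2. Hc, C6, C8a, C8b and C9 encode components of the membrane attack complex, and C8g the lipocalin chain carried by the C8 component. C6 had 302 and 299 CPM at week 0, 36.0 and 34.5 CPM at week 2, and 286 and 286 CPM at week 7. C8a had 448 and 444 CPM at week 0, 82.1 and 75.8 CPM at week 2, and 426 and 426 CPM at week 7. C8b had 498 and 583 CPM at week 0, 133 and 125 CPM at week 2, and 533 and 454 CPM at week 7. In each of these genes both week 2 libraries lay far below all others, and C8b is the member whose replicates spread most at week 7 and week 0. C9, the component that forms the wall of the pore, had 1727 and 1726 CPM at week 0, 429 and 422 CPM at week 2, and 1321 and 1339 CPM at week 7. For C9 the weeks did not overlap, with week 7 between week 2 and week 0.

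The week 2 levels were lower than those of week 0 by 8.54-fold for C6 (log2 fold change -3.09 ± 0.045 SE, edgeR adjusted p = 5.54e-10), 5.65-fold for C8a (log2 fold change -2.50 ± 0.048 SE, edgeR adjusted p = 2.4e-09), 4.2-fold for C8b (log2 fold change -2.07 ± 0.12 SE, edgeR adjusted p = 0.000483) and 4.06-fold for C9 (log2 fold change -2.02 ± 0.029 SE, edgeR adjusted p = 5.1e-10). Hc, the gene of the component cleaved to start pore assembly, averaged 83.6 ± 2.98 CPM at week 2 and 154 ± 13.4 CPM at week 0 (SD, n = 2 each), 1.84-fold lower at week 2 (log2 fold change -0.88 ± 0.068 SE, edgeR adjusted p = 3.07e-05). C8g differed least, with 333 ± 1.15 CPM at week 2 and 377 ± 6.07 CPM at week 0 (SD, n = 2 each; log2 fold change -0.18 ± 0.036 SE, edgeR adjusted p = 0.00806). That C8g call did not hold under scaling by total counts (adjusted p = 0.168) or without week 0 replicate 2 (0.0637), week 2 replicate 1 (0.0636) or week 2 replicate 2 (0.0632). In week 7 against week 2 the folds were 8.11 higher for C6, 5.4 for C8a, 3.83 for C8b, 3.13 for C9 and 1.69 for Hc (edgeR adjusted p = 1.33e-09, 4.3e-09, 0.000622, 2.5e-09 and 8.29e-05). In week 7 against week 0, C9 was 1.3-fold lower (log2 fold change -0.38 ± 0.028 SE, edgeR adjusted p = 5.21e-05) and C8g 1.13-fold lower (log2 fold change -0.18 ± 0.036 SE, edgeR adjusted p = 0.0111). Without week 0 replicate 2, C8g was not called there (adjusted p = 0.0806). C6, C8a, C8b and Hc were not called there (edgeR adjusted p = 0.301, 0.399, 0.546 and 0.299). The 6 genes together had 3512 and 3579 CPM at week 0, 1098 and 1072 CPM at week 2, and 3039 and 2980 CPM at week 7. At week 2 sex and time cannot be told apart.

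**Figure D2:**
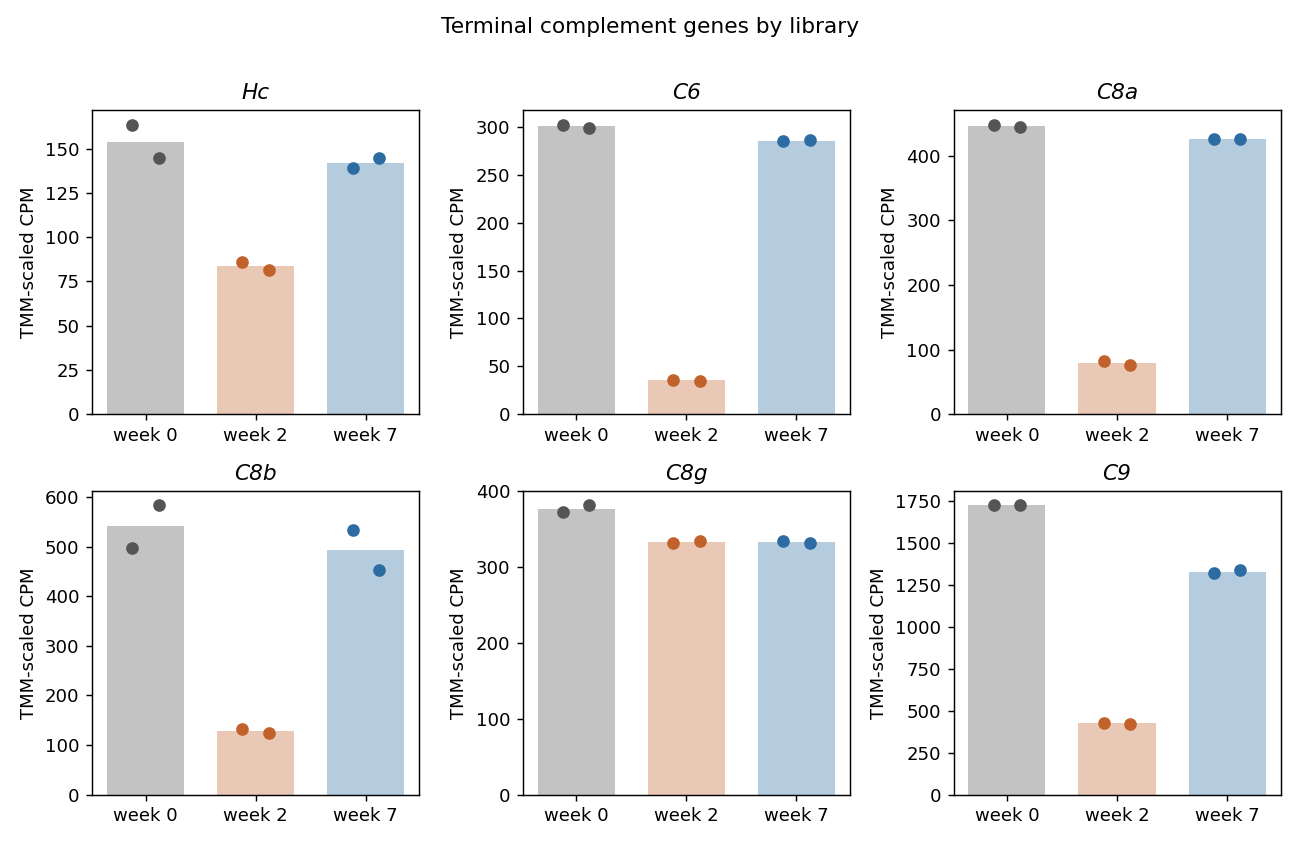
TMM-scaled CPM of the 6 terminal complement genes in each library, with bars at the mean of 2 libraries per week. C6, C8a, C8b, C9 and Hc are low in both week 2 libraries, and C8g lies between 332 and 382 CPM in all 6.

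The promoter windows of C6, C8a and C9 are shown because these genes were among the 4 that fell most at week 2 and hold a match to a motif searched, so that their starts can be read side by side. Each runs from 250 bases before to 50 bases after the RefSeq start on GRCm38.p6, a build that may differ from that behind the counts, and is written in the direction of transcription. The windows are chr15:4726960-4727259 (plus strand) for C6, chr4:104876349-104876648 (minus strand) for C8a and chr15:6445096-6445395 (plus strand) for C9. Capitals mark matches, on either strand, to the motifs searched. These are CTGGGAA in C6 (found as its reverse complement), TTCNNNGAA in C8a and TTGCNNAA in C9. The motif in C8a was added after the values were seen, and its window held no other motif searched. The window of C8b, also among the genes that fell most, held none and is not shown.
C6: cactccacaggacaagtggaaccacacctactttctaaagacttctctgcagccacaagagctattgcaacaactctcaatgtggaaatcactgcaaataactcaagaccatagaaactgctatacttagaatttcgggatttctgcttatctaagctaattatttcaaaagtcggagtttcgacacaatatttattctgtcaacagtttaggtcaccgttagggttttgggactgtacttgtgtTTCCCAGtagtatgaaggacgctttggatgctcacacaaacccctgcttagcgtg
C8a: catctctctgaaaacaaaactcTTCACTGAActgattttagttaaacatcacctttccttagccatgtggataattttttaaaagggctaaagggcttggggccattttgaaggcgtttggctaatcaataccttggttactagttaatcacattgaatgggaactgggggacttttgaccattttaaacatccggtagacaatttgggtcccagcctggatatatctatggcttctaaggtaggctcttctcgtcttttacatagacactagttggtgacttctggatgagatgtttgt
C9: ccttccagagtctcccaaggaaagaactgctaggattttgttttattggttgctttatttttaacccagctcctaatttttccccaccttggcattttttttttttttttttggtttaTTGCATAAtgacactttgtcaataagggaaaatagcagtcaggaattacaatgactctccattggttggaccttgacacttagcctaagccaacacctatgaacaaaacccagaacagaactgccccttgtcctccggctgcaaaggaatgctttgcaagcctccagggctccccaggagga
No motif searched was held by all 3 windows.

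RefSeq windows were matched for 32 of the 42 genes. The C/EBP-type letters TTGCNNAA were held by 11 of the 32 (34.4%, against 12.2% of 27025 genes with a window). The interleukin 6 type 2 element CTGGGAA was held by 8 (25.0%, against 12.7%), the STAT3-type site TTCCNGGAA by 2 (6.25%, against 1.35%), and the TCF/LEF-type site ATCAAAG by 2 (6.25%, against 4.29%). The HNF4-type site CAAAGTCCA was held by 0 of the 32, against 0.555% of all genes. The STAT5-type site TTCNNNGAA, added after the values were seen, was held by 8 (25.0%, against 9.55%), and any match to the STAT3-type letters also matches it. Both strands were searched. Of the 6 terminal genes, CTGGGAA, TTGCNNAA and TTCNNNGAA were held by 1 each. These matches describe letters in a window and say nothing of binding.

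Fibrinogen is built from the chains encoded by Fga, Fgb and Fgg, which lie side by side on chromosome 3. All 3 chain genes were higher at week 7 than at week 0, and all 3 were higher at week 2 than at week 0. Fga had 2669.95 and 2725 CPM at week 0, 3149.8 and 3074 CPM at week 2, and 3455 and 3396 CPM at week 7. The 3 weeks did not overlap, and both libraries of week 7 were the highest. Fga was 1.27-fold higher at week 7 than at week 0 (log2 fold change 0.34 ± 0.026 SE, edgeR adjusted p = 5.43e-05) and 1.15-fold higher at week 2 than at week 0 (log2 fold change 0.21 ± 0.026 SE, edgeR adjusted p = 0.000587). Fgb averaged 2979 ± 42.5 CPM at week 7 and 2726 ± 13.8 CPM at week 0 (log2 fold change 0.13 ± 0.027 SE, edgeR adjusted p = 0.0138), and Fgg averaged 2579.7 ± 2.06 CPM at week 7 and 2330.3 ± 19.8 CPM at week 0 (log2 fold change 0.15 ± 0.025 SE, edgeR adjusted p = 0.00497), with SD over n = 2 each. At week 7, Fgb was not called without week 0 replicate 1 (adjusted p = 0.0757), week 0 replicate 2 (0.0947) or week 7 replicate 2 (0.0511), nor was Fgg without week 0 replicate 2 (0.0516). In week 2 against week 0, Fgb (log2 fold change 0.14 ± 0.027 SE, edgeR adjusted p = 0.00772) lost its call without week 0 replicate 1 (0.0504), week 0 replicate 2 (0.0648) or week 2 replicate 1 (0.103). Fgg (log2 fold change 0.15 ± 0.025 SE, edgeR adjusted p = 0.00315) lost its week 2 call without week 2 replicate 1 (0.0535).

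Fgl1 encodes a secreted relative of fibrinogen that is known as a ligand of LAG3, an inhibitory receptor of T cells. Fgl1 had 113 and 107 CPM at week 0, 691 and 664 CPM at week 2, and 113 and 116 CPM at week 7. Both week 2 libraries stood far above the other 4, and week 7 and week 0 lay close together. The level was 6.17-fold higher at week 2 than at week 0 (log2 fold change 2.63 ± 0.046 SE, edgeR adjusted p = 1.41e-09) and 5.9-fold lower at week 7 than at week 2 (log2 fold change -2.56 ± 0.046 SE, edgeR adjusted p = 2.8e-09). Week 7 against week 0 was not called (edgeR adjusted p = 0.397).

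**Figure D3:**
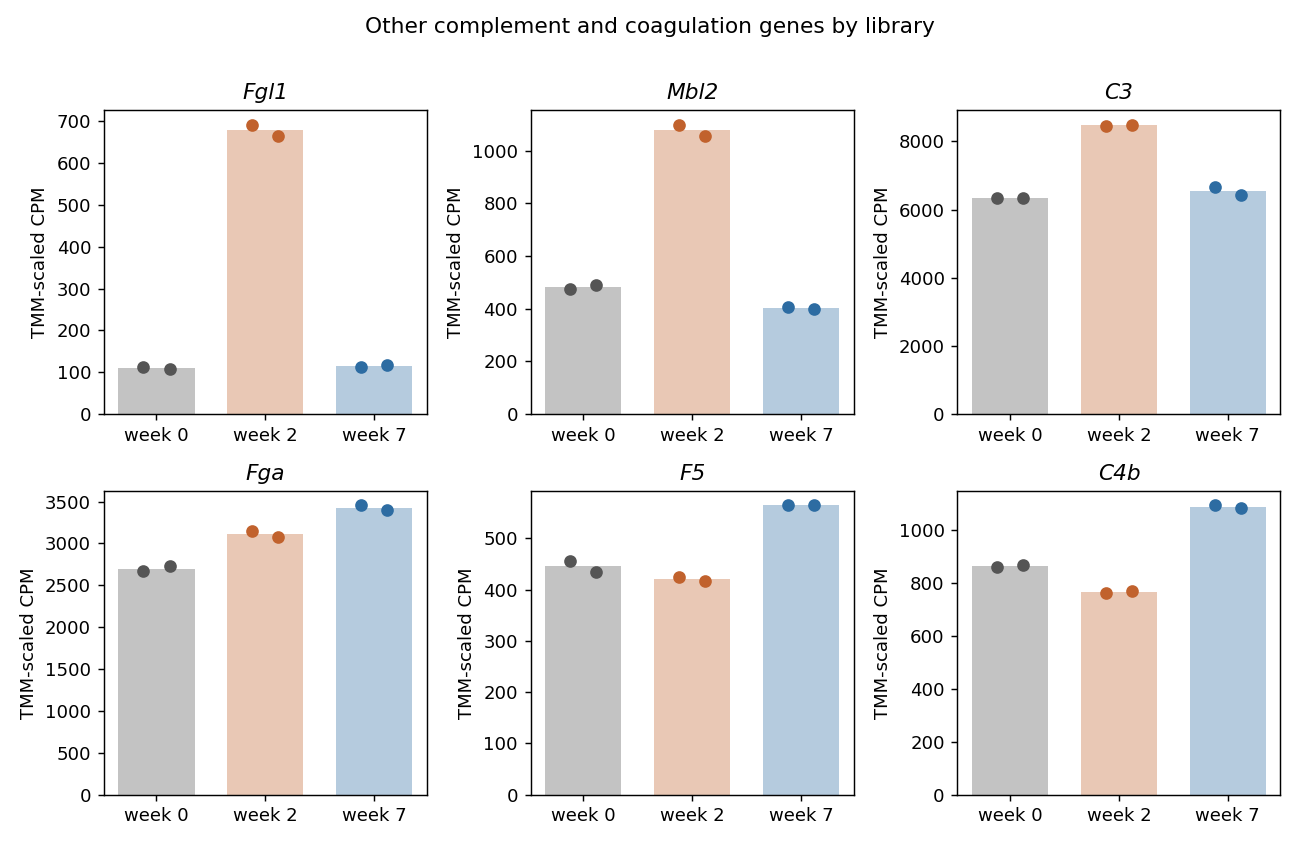
TMM-scaled CPM of Fgl1, Mbl2, C3, Fga, F5 and C4b in each library, with bars at the mean of 2 libraries per week. Fgl1, Mbl2 and C3 are highest in both week 2 libraries, while Fga, F5 and C4b are highest in both week 7 libraries.

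Subunits of one complex were also compared within a library, where depth and scaling cancel. The ratio of C8a to C8g counts was 0.247 and 0.227 at week 2, against 1.20 and 1.16 at week 0. The ratio of C8b to C8g counts was 0.400 and 0.373 at week 2, against 1.34 and 1.53 at week 0. Both ratios at week 7, 1.28 in each library for C8a and 1.59 and 1.37 for C8b, were far above those of week 2. The ratio of Fgb to Fgg counts lay between 1.14 and 1.17 in all 6 libraries. The ratio of Fga to Fgg counts was 1.34 and 1.32 in week 7 libraries and 1.21 and 1.20 in week 2 libraries, against 1.14 and 1.18 in week 0 libraries. At week 2 against week 0, C8g thus differed less than its partner chains. At week 7 against week 0 only C8g of these chains was called, which does not set it apart from C8b. The log2 fold change there was -0.18 ± 0.036 SE for C8g and -0.13 ± 0.11 SE for C8b. Ratios of C8b to C8g overlapped between week 7 and week 0, while those of C8a to C8g were higher at week 7. These ratios depend on transcript length, so only their differences between libraries can be read.

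**Figure D4:**
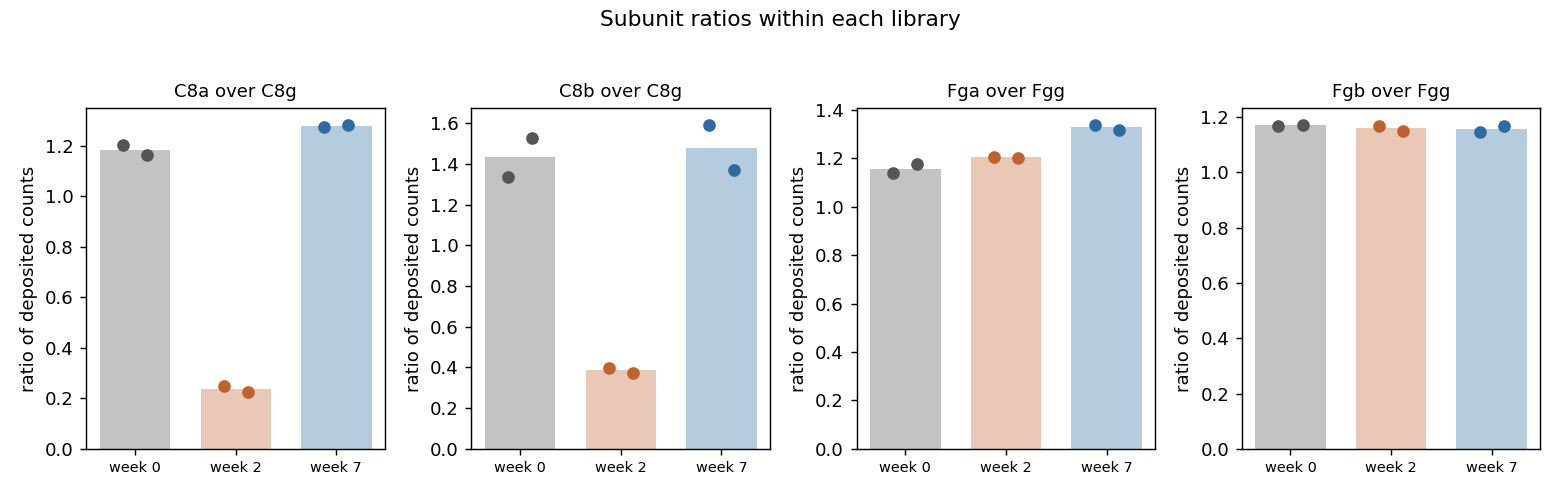
Ratio of deposited counts of 2 subunit genes within each library, with bars at the mean of 2 libraries per week. The ratios of C8a and C8b to C8g are low in both week 2 libraries, Fga over Fgg is highest at week 7, and Fgb over Fgg stays between 1.14 and 1.17.

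Of the 8 genes for vitamin K dependent proteins and the cofactor F5, F5 rose and F10 fell at week 7 against week 0, while F2, F7 and F10 rose and Proc fell at week 2 against week 0. F2, the precursor of thrombin, had 1815 and 1830.4 CPM at week 0, 1972 and 1945 CPM at week 2, and 1742 and 1669.99 CPM at week 7. The weeks did not overlap, with week 2 the highest and week 7 the lowest. F2 was 1.07-fold higher at week 2 than at week 0 (log2 fold change 0.10 ± 0.029 SE, edgeR adjusted p = 0.0395), a call lost in DESeq2 (adjusted p = 0.0511), with a replicate block (0.0756) and without any 1 of the 4 libraries (0.132 to 0.233). It was 1.15-fold lower at week 7 than at week 2 (log2 fold change -0.20 ± 0.029 SE, edgeR adjusted p = 0.0016), and week 7 against week 0 was not called (edgeR adjusted p = 0.0641).

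F5, the cofactor that speeds thrombin formation, averaged 564 ± 0.15 CPM at week 7 and 445 ± 16.1 CPM at week 0 (SD, n = 2 each), 1.27-fold higher at week 7 (log2 fold change 0.34 ± 0.037 SE, edgeR adjusted p = 0.000516). F10, the protease that makes thrombin, was 1.14-fold lower at week 7 than at week 0 (log2 fold change -0.19 ± 0.035 SE, edgeR adjusted p = 0.00703), which did not hold without week 0 replicate 2 (adjusted p = 0.0581), and 1.15-fold higher at week 2 than at week 0 (log2 fold change 0.21 ± 0.035 SE, edgeR adjusted p = 0.00342). F7, the protease that tissue factor binds to start clotting, was 1.4-fold higher at week 2 than at week 0 (log2 fold change 0.49 ± 0.061 SE, edgeR adjusted p = 0.000619), with 125 ± 3.35 CPM at week 2 and 89.6 ± 2.37 CPM at week 0 (SD, n = 2 each). Proc, the precursor of the anticoagulant activated protein C, was 1.13-fold lower at week 2 than at week 0 (log2 fold change -0.18 ± 0.041 SE, edgeR adjusted p = 0.0178). Proc was not called under scaling by total counts (adjusted p = 0.261) or without week 0 replicate 2 (0.125), week 2 replicate 1 (0.0984) or week 2 replicate 2 (0.105). F9, the protease missing in haemophilia B, was not called at week 7 or week 2 against week 0 (edgeR adjusted p = 0.135 and 0.137). Pros1, the cofactor of activated protein C, averaged 40.7 ± 0.412 CPM at week 0, 42.9 ± 5.10 CPM at week 2 and 39.0 ± 0.409 CPM at week 7 (SD, n = 2 each), and Proz, a cofactor in the inhibition of activated factor X, averaged 468 ± 0.699 CPM at week 0, 489 ± 2.54 CPM at week 2 and 461 ± 8.81 CPM at week 7.

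The contact system starts clotting on surfaces and releases bradykinin from kininogens. Kng1, a kininogen gene, was lower at week 7 than at week 0 by 1.17-fold (log2 fold change -0.23 ± 0.029 SE, edgeR adjusted p = 0.00108) and higher at week 2 than at week 0 by 1.18-fold (log2 fold change 0.24 ± 0.029 SE, edgeR adjusted p = 0.000527). It averaged 1801 ± 9.86 CPM at week 0, 2125 ± 48.7 CPM at week 2 and 1534 ± 31.8 CPM at week 7 (SD, n = 2 each). Its neighbour Kng2 was 1.2-fold higher at week 2 than at week 0 (log2 fold change 0.27 ± 0.044 SE, edgeR adjusted p = 0.00312) and not called at week 7 against week 0 (edgeR adjusted p = 0.956). The ratio of Kng1 to Kng2 counts was 7.95 and 7.88 at week 7, against 9.16 and 9.51 at week 0, though reads of these near-identical genes may have been split. Klkb1, the precursor of plasma kallikrein that cuts kininogen, was 1.26-fold lower at week 2 than at week 0 (log2 fold change -0.34 ± 0.062 SE, edgeR adjusted p = 0.00629), which did not hold without week 0 replicate 1 (adjusted p = 0.0512). F11 and F12, proteases of the same route, were called in neither comparison with week 0 (edgeR adjusted p between 0.138 and 0.995).

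Among 7 genes of clot stabilisation, fibrinolysis and clotting inhibition, Plg, Serpind1 and Serpinf2 rose and Cpb2 and Serpinc1 fell at week 7 against week 0, while Serpinf2 alone was called at week 2 against week 0. Plg, the precursor of the fibrin-cutting protease plasmin, had 2183 and 2186 CPM at week 0, 2272 and 2256 CPM at week 2, and 2362 and 2297 CPM at week 7. Both week 7 libraries were the highest, and week 7 and week 0 did not overlap. Plg was 1.07-fold higher at week 7 than at week 0 (log2 fold change 0.093 ± 0.026 SE, edgeR adjusted p = 0.0452). The call was lost in 9 of 13 alternative settings, among them without week 0 replicate 1 (adjusted p = 0.185), week 0 replicate 2 (0.174), week 2 replicate 1 (0.104), week 2 replicate 2 (0.114) or week 7 replicate 1 (0.152). Serpinc1, which encodes antithrombin, had 1433 and 1452 CPM at week 0, 1518 and 1420.3 CPM at week 2, and 1333 and 1310.4 CPM at week 7. The week 7 libraries were the lowest, and those of week 2 overlapped with week 0. Serpinc1 was 1.09-fold lower at week 7 than at week 0 (log2 fold change -0.13 ± 0.035 SE, edgeR adjusted p = 0.0475). That call was also lost in 9 of 13 settings, with adjusted p of 0.139 and 0.205 without week 0 replicate 1 or 2, 0.0543 without week 2 replicate 2, and 0.109 and 0.162 without week 7 replicate 1 or 2.

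Serpind1, heparin cofactor II, which inhibits thrombin, averaged 610.3 ± 4.33 CPM at week 7 and 528 ± 12.1 CPM at week 0 (SD, n = 2 each), 1.16-fold higher at week 7 (log2 fold change 0.21 ± 0.033 SE, edgeR adjusted p = 0.00376). Serpinf2, the inhibitor of plasmin, was 1.12-fold higher at week 7 than at week 0 (log2 fold change 0.17 ± 0.036 SE, edgeR adjusted p = 0.0157) and 1.12-fold higher at week 2 than at week 0 (log2 fold change 0.17 ± 0.036 SE, edgeR adjusted p = 0.0127). At week 7 it was not called without week 0 replicate 1 (adjusted p = 0.0746), week 0 replicate 2 (0.083) or week 7 replicate 1 (0.0703), and at week 2 it was not called without any 1 of the 4 libraries (0.0623 to 0.0848). Cpb2, a carboxypeptidase that slows fibrinolysis, was 1.12-fold lower at week 7 than at week 0 (log2 fold change -0.16 ± 0.037 SE, edgeR adjusted p = 0.0193), a call that did not hold under scaling by total counts (0.0584) or without any 1 of the 4 libraries (0.0578 to 0.128). F13b, the carrier subunit of the fibrin crosslinking enzyme, and Vtn, an adhesive protein that binds plasminogen activator inhibitor, were called in neither comparison with week 0. F13b averaged 253 ± 0.616 CPM at week 0, 269.8 ± 9.48 CPM at week 2 and 237 ± 16.5 CPM at week 7 (SD, n = 2 each). Vtn averaged 2175 ± 37.5 CPM at week 0, 2092 ± 31.8 CPM at week 2 and 2298 ± 11.5 CPM at week 7.

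The 42 genes together took 3.88% and 3.78% of the counts of the week 7 libraries and 4.10% and 4.12% of those of week 2, against 3.63% and 3.68% of those of week 0. These are shares of unscaled totals. Of the same totals, major urinary protein (Mup) genes took 10.4% and 10.1% at week 0 and 2.94% and 2.83% at week 2. TMM-scaled sums were 37628 and 37690 CPM at week 0, 39967 and 39541 CPM at week 2, and 38781 and 38161 CPM at week 7. C3 alone averaged 6342 CPM at week 0 and 8469 CPM at week 2. The 2 libraries of a week differed by a median of 0.0291 on the log2 scale over the 42 genes at week 7, 0.0329 at week 2 and 0.0324 at week 0. Of the 17 calls at week 7 against week 0, 8 (C4b, C9, Cfi, F5, Fga, Kng1, Mbl2 and Serpind1) held in all of 13 alternative settings. The count fell to 11 without week 0 replicate 1 and to 8 without week 0 replicate 2, when 8.12% and 8.42% of all tested genes were called. Of the 25 calls at week 2 against week 0, 16 held in all 13 settings. At week 7 against week 2, C1ra, C2, C4b, C4bp, C6, C8a, C8b, C9, F5 and Hc rose and C3, Cfi, F10, F2, Fgl1, Kng1, Kng2 and Mbl2 fell in all 13 settings, 18 of 29 calls.

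Complement genes outside the 42 were taken from a fixed list, of which 30 passed the filter on low counts. At week 7 against week 0, 2 were called higher and 11 lower, against 7.58% and 6.23% of all tested genes. At week 2 against week 0, 11 were higher and 6 lower, against 9.81% and 8.81%. C4a, the near-identical neighbour of C4b, was 42.4 ± 0.36 CPM at week 7 and 106 ± 5.3 CPM at week 0 (SD, n = 2 each), with 16.2 ± 1.7 CPM at week 2. C4a therefore fell in the same comparison in which C4b rose (log2 fold change -1.32 ± 0.088 SE, edgeR adjusted p = 2.88e-05), and a changed split of reads between the 2 genes was not tested. C1qa and C1qc, which macrophages make as parts of the C1 complex, were lower at week 7 than at week 0 (log2 fold change -0.48 ± 0.063 SE, edgeR adjusted p = 0.00128 and log2 fold change -0.35 ± 0.068 SE, edgeR adjusted p = 0.00951), while C1qb was not called (edgeR adjusted p = 0.093). The C1qc call was lost without week 7 replicate 1 (0.0521). All 3 were higher at week 2 than at week 0, with log2 fold changes from 0.72 to 0.76 (edgeR adjusted p from 6.61e-05 to 0.00017), in the direction of the Kupffer cell marker sums given above, whose part was not tested. C1qb and C1qc were chosen after their values were seen. Clu, the clusterin gene, and Cpn2, a subunit of the carboxypeptidase that inactivates anaphylatoxins, were higher at week 7 than at week 0 (log2 fold change 0.18 ± 0.036 SE, edgeR adjusted p = 0.0105 and log2 fold change 0.17 ± 0.035 SE, edgeR adjusted p = 0.0136). The call of Clu was lost without week 0 replicate 1 (0.078), and that of Cpn2 without week 0 replicate 1 (0.0695), week 0 replicate 2 (0.0779) or week 7 replicate 1 (0.0506).

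Of 22 tested further clotting and fibrinolysis genes, 4 were higher and 3 lower at week 7 against week 0 (7.58% and 6.23% of all tested genes). At week 2 against week 0, 8 were higher and 1 lower (9.81% and 8.81% of all tested genes). Anxa2, a cell surface receptor of plasminogen and its tissue activator, was higher at week 7 than at week 0 (log2 fold change 1.68 ± 0.11 SE, edgeR adjusted p = 3.27e-05). Plat, the tissue plasminogen activator, had 50 and 78 deposited counts at week 7 and 4 and 0 at week 0, with 123 and 135 at week 2 (edgeR adjusted p = 0.00604 for week 7 against week 0). Serpina10, the inhibitor that works with Proz, and Tfpi2 were lower at week 7 than at week 0 (log2 fold change -0.25 ± 0.04 SE, edgeR adjusted p = 0.00355 and log2 fold change -0.59 ± 0.098 SE, edgeR adjusted p = 0.00481). Of 9 genes of the vitamin K cycle and factor export, 1 was higher and 2 lower at week 7 against week 0. At week 2 against week 0, 2 were higher and 2 lower, with the same shares of all tested genes as background. Lman1 and Mcfd2, the cargo receptor pair that exports F5 from the endoplasmic reticulum, were both lower at week 7 than at week 0 (log2 fold change -0.26 ± 0.043 SE, edgeR adjusted p = 0.00485 and log2 fold change -0.25 ± 0.047 SE, edgeR adjusted p = 0.00836). The Mcfd2 call was lost without week 0 replicate 2 (0.0672). At week 2 against week 0 the pair went opposite ways, with Lman1 lower (log2 fold change -0.44 ± 0.043 SE, edgeR adjusted p = 0.000156) and Mcfd2 higher (log2 fold change 0.31 ± 0.047 SE, edgeR adjusted p = 0.00176). Furin, a protease that processes secreted precursors, was higher at week 7 than at week 0 (log2 fold change 0.46 ± 0.096 SE, edgeR adjusted p = 0.0291). That call was lost without any 1 of the 4 libraries and with no filter on low counts (adjusted p = 0.0525).

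A further list held 22 cytokine receptors, signalling genes and liver factors, including inhibitors as well as drivers of such genes. At week 7 against week 0, 7 were higher and 4 lower (7.58% and 6.23% of all tested genes). At week 2 against week 0, 7 were higher and 6 lower (9.81% and 8.81% of all tested genes). Socs3, the feedback inhibitor of interleukin 6 signalling, and Foxa2, a liver transcription factor, were higher at week 7 than at week 0 (log2 fold change 2.15 ± 0.14 SE, edgeR adjusted p = 2.41e-05 and log2 fold change 1.11 ± 0.098 SE, edgeR adjusted p = 0.000155). Nr0b2, a nuclear receptor repressor, and Il1rap, the accessory chain of the interleukin 1 receptor, were lower (log2 fold change -0.52 ± 0.094 SE, edgeR adjusted p = 0.00763 and log2 fold change -0.32 ± 0.06 SE, edgeR adjusted p = 0.009). The call of Nr0b2 was lost without week 0 replicate 1 or week 7 replicate 2, and that of Il1rap without week 0 replicate 1 or week 7 replicate 1. At week 2 against week 0, Nr0b2 and Il1rap were also lower (log2 fold change -1.16 and -1.81, edgeR adjusted p = 4.56e-05 and 1.16e-07). Socs3 and Foxa2 were also higher there (log2 fold change 1.59 and 1.16, edgeR adjusted p = 6.37e-05 and 5.22e-05). These week 2 calls held in all 13 settings.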

How the data were processed

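Per the labels' protocols, TruSeq V2 libraries of poly-A RNA were sequenced from both ends. Bowtie 0.12.2 and the build mm8 are named by the submitters' processing notes, without saying what they were used for. Which counter and annotation were used is not given in the sources used here. Unscaled estimated counts for Ensembl genes in 6 libraries were deposited, and 0 of them had to be rounded. Symbols were matched for 54409 of the 54446 identifiers through GENCODE M21. In each library 68.3% to 69.6% of the values from 4 to 43 were multiples of 4 or 1 above one, and a read pair was taken as about 4 deposited counts in an alternative that divided counts by 4. Totals ran from 49353453 to 58434358 counts. The reads carry no molecular identifiers.

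The tests used edgeR 4.0.16 in R 4.3.3. After filterByExpr and TMM scaling, 1 robust quasi-likelihood fit over the 6 libraries gave each week its own coefficient, with 3 residual degrees of freedom and a common biological coefficient of variation of 0.209. Tests were 2-sided, adjusted by the Benjamini-Hochberg method over 15368 genes, and called at an adjusted p under 0.05. Standard errors are the log2 fold change over the square root of F. Levels are TMM-scaled CPM computed from the deposited counts, and folds are ratios of their means. The script was tested on simulated counts. Python 3.11.15 with pandas 2.3.3 and matplotlib 3.10.9 made the summaries and figures.

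The 42 genes and the lists were chosen with earlier results of these data known. The value in each library is given for genes called with at least a 2-fold difference in a comparison with week 2, and for Fga, F2, Plg, Serpinc1 and C3 whatever their result. Means of other members were added after their values were seen. From each further list up to 2 called genes per direction were named by adjusted p at week 7 against week 0. In those lists, 33 of 34 names of other complement genes and 7 of 8 hepatocyte markers were found in the table. Alternatives were median-of-ratios scaling (RLE), total counts only, no filter, DESeq2 1.42.0, a fit of only the 4 libraries compared, the replicate number as a block, leaving out each library, counts divided by 4 and an adjusted p under 0.01. The 13 settings of the report are all but the last. A left-out library leaves its week with 1 library, which is assumed to vary like the others. A promoter motif in the plan is not reported here.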

Additional observations from a re-analysis of the deposited data

How the results depend on the processing

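No gene named in the report reversed direction while called under any alternative run. At an adjusted p under 0.01, 10 of the 42 genes were called at week 7 against week 0 (5 higher and 5 lower), against 17 at 0.05 (9 and 8), while 6.56% of all tested genes were called at 0.01. Leaving out 1 library gave 8 to 16 calls at week 7 against week 0 (4 to 8 higher and 4 to 8 lower), 18 to 25 at week 2 against week 0 (8 to 12 and 10 to 13), and 20 to 27 at week 7 against week 2 (11 to 15 and 9 to 12). Calls over all tested genes fell too, to 7.98% to 11.4%, 11.1% to 16.9% and 11.3% to 18.1% in the same comparisons, so the lower counts cannot be read as about the 42 genes. The lowest count of lower genes at week 7 against week 2, 9, came without week 2 replicate 1, which leaves week 2 with 1 library. With total counts only, 20 genes were higher at week 2 against week 0 and the median log2 fold change of the 42 genes was 0.12, while that of all tested genes was 0.105. All other counts over the 42 genes stayed within 1.5-fold. The difference between replicate 1 and replicate 2 of a week was correlated between weeks over 15368 genes. The correlations were -0.0019, -0.015 and -0.013, so the replicate numbers showed no pairing of the libraries. With the number as a replicate block, 15, 24 and 27 of the 42 genes were called at week 7 against week 0, week 2 against week 0 and week 7 against week 2, beside 11.1%, 15.9% and 17% of all tested genes. Of the 29 calls at week 7 against week 2, 18 held in all 13 settings. With 2 libraries a week and 3 residual degrees of freedom, a gene not called may still differ by a small amount. The build behind the counts is unsure, and reads of near-identical copies may have been split between them. How alike these copies are was not computed.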

Other observations

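Acute phase genes outside the 42 were taken from a fixed list of 16, all of which were tested. At week 7 against week 0, 4 were called higher and 2 lower, against 7.58% and 6.23% of all tested genes. At week 2 against week 0, 10 were higher and 4 lower, against 9.81% and 8.81%. Lcn2, the iron-chelator binding protein lipocalin 2, was higher at week 7 than at week 0 (log2 fold change 3.74 ± 0.13 SE, edgeR adjusted p = 5.66e-07) and higher at week 2 than at week 0 (log2 fold change 4.04 ± 0.13 SE, edgeR adjusted p = 7.45e-08). Itih4, a liver plasma protein, was higher at week 7 than at week 0 (log2 fold change 0.30 ± 0.031 SE, edgeR adjusted p = 0.00033). Hamp, which encodes the iron hormone hepcidin, and Orm1, an acid glycoprotein, were lower at week 7 than at week 0 (log2 fold change -0.79 ± 0.026 SE, edgeR adjusted p = 4.99e-07 and log2 fold change -0.41 ± 0.032 SE, edgeR adjusted p = 7.39e-05). At week 2 against week 0, Orm1 was higher (log2 fold change 0.33 ± 0.032 SE, edgeR adjusted p = 0.000122) and Hamp lower (log2 fold change -0.35 ± 0.026 SE, edgeR adjusted p = 2.54e-05). These calls held in all 13 alternative settings.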
